A study of Mus musculus with 6 samples.

Results

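Transcripts of the tricarboxylic acid (TCA) cycle and of succinate sensing were followed in mouse liver RNA: 8 enzyme genes (Pdha1, Cs, Idh3a, Ogdh, Suclg1, Suclg2, Fh1 and Mdh2) and Sucnr1, the receptor for succinate. They were picked by symbol out of 29734 genes in the deposited table, with their difference between the genotypes already known. All 9 were found on 1 row each and all 9 passed the filter on low counts, with 18931 genes, so their differences between the genotypes are given below as a description and carry no test. The enzymes rested on 2349 to 27128 estimated counts per library and Sucnr1 on 1112 to 4014.

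The samples were livers of male mice that received a Western diet, which is rich in fat and sugar, for 20 weeks from an age of 8 weeks. One group carried a Prdx1 allele that codes for serine instead of cysteine 52 (Prdx1 C52S, 3 libraries, numbered 1, 2 and 4), and the other carried the wild-type allele (WT, 3 libraries, numbered 6, 8 and 9). Peroxiredoxin 1, the product of Prdx1, removes hydrogen peroxide through that cysteine. Both groups had the same diet and sex, and a control diet was not analysed here, so every level below is a level on the Western diet. The strain, and whether each library came from its own mouse, is not given in the sources used here, and p-values then measure only the spread between these samples.

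The TCA cycle runs in the mitochondrial matrix. It takes in acetyl-CoA, made from pyruvate by the pyruvate dehydrogenase complex or from fatty acids, releases carbon dioxide and passes electrons to the respiratory chain. In the liver it also supplies citrate for fat synthesis and oxaloacetate for glucose synthesis. Succinate that leaves the mitochondria and the cell is sensed by the G-protein-coupled receptor SUCNR1, which has been described in liver stellate cells and macrophages among other cells.

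Sucnr1 had the widest difference of the 9. Its level, in fragments per kilobase of transcript, scaled to depth (FPKM), was 20.7, 29.3 and 24.7 in Prdx1 C52S 1, 2 and 4, beside 10.5, 9.98 and 8.19 in WT 6, 8 and 9. Every Prdx1 C52S library lay above every WT library. The means were 24.9 ± 4.26 and 9.54 ± 1.2 FPKM (SD, n = 3 each), a ratio of 2.61. On the scale of edgeR with TMM factors, which correct for the composition of a library, the log2 fold change (Prdx1 C52S minus WT) was 1.67 (SE 0.17), and it lay between 1.53 and 1.80 whichever single library was left out. The gene (ENSMUSG00000027762) is annotated on chromosome 3, 60081869 to 60087566, plus strand (GRCm38, as for all positions below) and overlaps no other annotated gene.

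**Figure D1:**
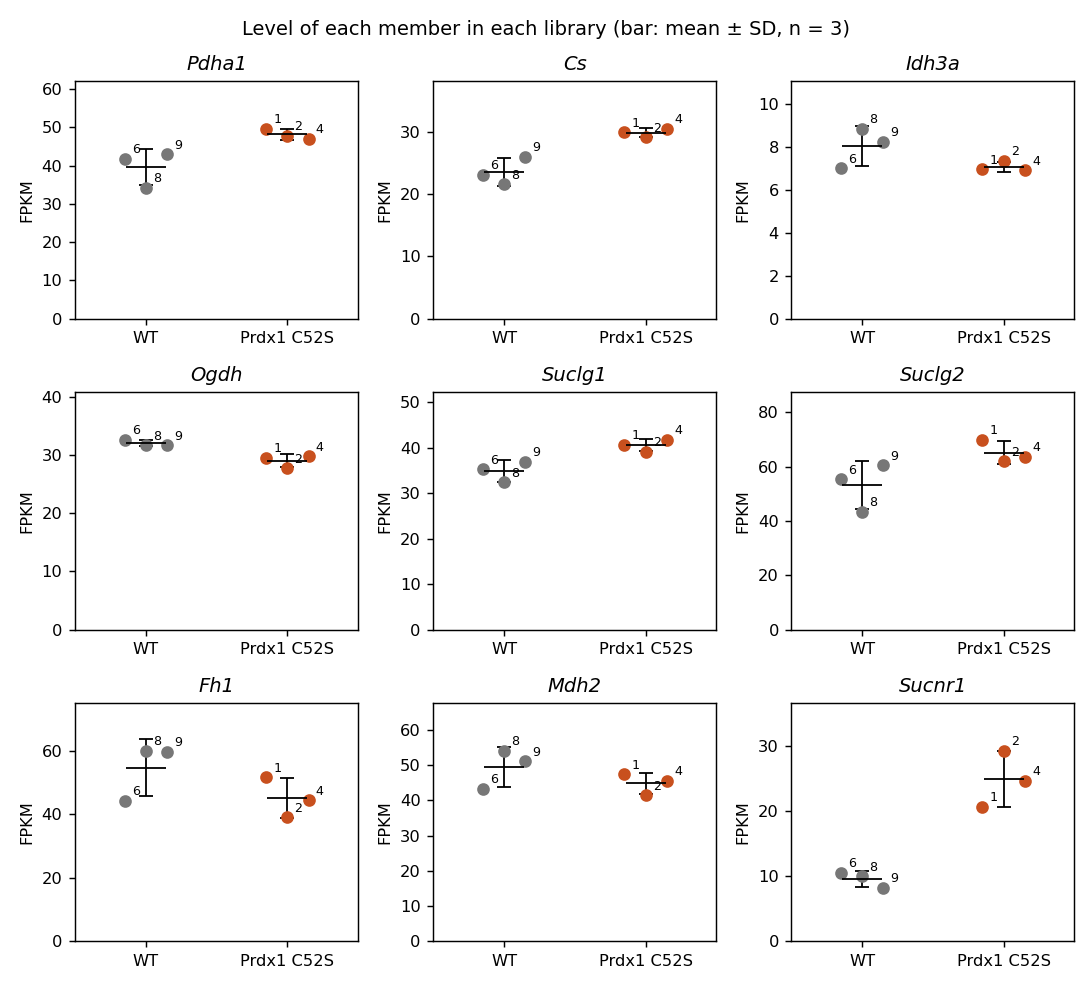
FPKM of each of the 9 members in each library, with WT in grey and Prdx1 C52S in orange; numbers are replicate labels, and bars give the mean ± SD of n = 3. Sucnr1 lies between 8.19 and 10.5 in WT and between 20.7 and 29.3 in Prdx1 C52S, while Fh1, Mdh2 and Idh3a overlap between the groups.

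The enzymes showed 3 patterns by FPKM. Pdha1, Cs, Suclg1 and Suclg2 had higher FPKM in every Prdx1 C52S library than in any WT library, and Idh3a, Fh1 and Mdh2 had overlapping groups. Ogdh had lower FPKM in every Prdx1 C52S library. By FPKM, 5 of the 9 members with Sucnr1 thus lay wholly above WT and 1 wholly below, where 6.09% of the 18931 genes tested lay wholly above and 36.7% wholly below. After TMM scaling 5 members lay wholly above WT and 0 below, beside 16.9% and 18% of all genes. These counts describe the difference the members were picked for, and nothing is read from them.

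No single gene of the whole table passed an adjusted p of 0.05 when edgeR's quasi-likelihood test used the 6 libraries (0.0% of genes tested, smallest adjusted p 0.0553), while an unadjusted p under 0.05 was reached by 26.3%, of all genes 11.5% on the higher and 14.8% on the lower side in Prdx1 C52S. DESeq2 called 7.39% higher and 9.1% lower at an adjusted p of 0.05, and voom with library quality weights 5.15% and 5.08%. Without WT 8, which had the lowest mean correlation with the other libraries (0.937, beside 0.958 to 0.966), edgeR called 2.7% higher and 1.94% lower. Library totals were between 60326469 and 76164949 estimated counts. Prdx1 itself was at 247 ± 12.2 FPKM in Prdx1 C52S and 246 ± 20.7 in WT, and because a change of 1 residue leaves the transcript in place, this does not check the genotype labels.

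The promoter windows of the receptor, of an enzyme with higher FPKM in Prdx1 C52S (Cs) and of an enzyme with overlapping groups (Fh1) are shown here, because the receptor window differs in base composition from both enzyme windows, which resemble each other. Each is the run of 250 bases before the RefSeq transcript start, 5′ to 3′ on the strand of the gene (GRCm38.p6), and capitals mark a CCAAT box (CCAAT) or a GC box (GGGCGG) on either strand. The windows are chr3:60081619-60081868 (plus strand) for Sucnr1, chr10:128337477-128337726 (plus strand) for Cs and chr1:175625636-175625885 (minus strand) for Fh1.
Sucnr1: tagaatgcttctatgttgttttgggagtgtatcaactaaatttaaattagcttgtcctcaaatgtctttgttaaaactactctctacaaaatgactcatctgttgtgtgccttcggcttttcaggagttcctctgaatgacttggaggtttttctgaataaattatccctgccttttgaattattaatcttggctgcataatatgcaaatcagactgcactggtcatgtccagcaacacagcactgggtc
Cs: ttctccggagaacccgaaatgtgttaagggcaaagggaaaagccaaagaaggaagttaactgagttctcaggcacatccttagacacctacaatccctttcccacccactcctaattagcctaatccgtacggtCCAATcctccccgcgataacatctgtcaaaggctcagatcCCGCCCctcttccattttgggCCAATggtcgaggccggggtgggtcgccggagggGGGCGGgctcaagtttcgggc
Fh1: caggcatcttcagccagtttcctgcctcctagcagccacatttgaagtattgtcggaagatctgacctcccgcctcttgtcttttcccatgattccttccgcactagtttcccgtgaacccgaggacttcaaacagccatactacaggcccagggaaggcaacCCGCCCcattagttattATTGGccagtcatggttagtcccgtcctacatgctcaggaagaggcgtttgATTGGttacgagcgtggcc
The Sucnr1 window holds 1 CpG and 38.0% G and C, and 8.47% of 32851 promoter windows of the same length have a lower share. Cs has 13 CpG and 55.2%, and Fh1 has 10 CpG and 52.8%, beside a median of 6.0 CpG and 52.4% over all windows. A CCAAT box stood in a window of 4 of the 8 members in the table of RefSeq promoters, which lacks Idh3a (Cs, Fh1, Ogdh and Suclg2) and in 33.8% of all windows, and a GC box in 5 (Cs, Fh1, Mdh2, Ogdh and Suclg2) and 32.7%. Ogdh has several annotated starts, so that it had more chances to hold either. Neither box was found before Sucnr1, Suclg1 or Pdha1. The letters of 3 motifs linked to mitochondrial genes were in none of these windows: the palindrome of nuclear respiratory factor 1 (0.782% of all windows), AAGGTCA of the estrogen-related receptors (4.08%) and CCGGAAG of ETS factors (6.91%), each searched on both strands. These matches are a description of letters and say nothing about binding.

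Entry of pyruvate is set by the pyruvate dehydrogenase complex, whose E1 component contains the alpha subunit encoded by Pdha1. Pdha1 (ENSMUSG00000031299, chromosome X, 160122209 to 160138413, minus strand) was at 49.7, 47.8 and 47.0 FPKM in Prdx1 C52S 1, 2 and 4, beside 41.8, 34.2 and 43.0 in WT 6, 8 and 9. The groups did not overlap, and WT 8 was the lowest of all. The means were 48.2 ± 1.38 and 39.7 ± 4.75 FPKM (SD, n = 3 each), and the log2 fold change was 0.55 (SE 0.18), or 0.38 without WT 8. Map3k15 overlaps Pdha1 on the other strand at 0.132 to 0.682 FPKM, far below it.

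The partners of Pdha1 in the complex were not among the members and were tested over all genes. Dlat, the E2 component, was at 15.0 ± 1.58 against 10.5 ± 0.996 FPKM (log2 difference 0.79, SE 0.17, edgeR adjusted p = 0.0819), with no overlap of the groups. Without WT 8 its log2 fold change was 0.63 with an edgeR adjusted p of 0.0231. Pdhb, the beta subunit of E1, was at 41.6 ± 5.2 against 34.1 ± 4.84 FPKM (log2 difference 0.57, edgeR adjusted p = 0.11), and Pdhx, which holds E3 in the complex, at 7.43 ± 0.358 against 6.87 ± 0.718 (0.40, edgeR adjusted p = 0.131). The ratio of Pdha1 to Pdhb within a library, which no scaling of libraries can alter, was 1.17 ± 0.156 in Prdx1 C52S and 1.18 ± 0.223 in WT (SD, n = 3 each), and the groups overlapped.

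Of 12 genes of pyruvate entry (the subunits, the kinases and phosphatases of the complex and the mitochondrial pyruvate carrier), 10 had positive fold changes with a median of 0.45 (also 10 with library totals, median 0.17). None passed an adjusted p of 0.05 in edgeR, and 7 were higher and 1 lower at an unadjusted p under 0.05. DESeq2 called 4 higher and 1 lower, voom with quality weights 3 and 1, and edgeR without WT 8 called 2 higher and 0 lower. Over all genes tested, 11.5% were higher and 14.8% lower at that unadjusted p. The DESeq2 shares were 7.39% and 9.1%, the voom shares 5.15% and 5.08%, and the edgeR shares without WT 8 2.7% and 1.94%. With TMM, 8903 of the 18931 genes tested had positive fold changes, which is the background for each such count below. Mpc2, a subunit of the pyruvate carrier, was at 13.9 ± 0.104 against 12 ± 0.793 FPKM (log2 difference 0.48, edgeR adjusted p = 0.107). Pdk3, a kinase that inactivates the complex, was low and went the other way, at 0.271 ± 0.125 against 0.926 ± 0.255 FPKM (-1.44, edgeR adjusted p = 0.102). The kinase Pdk1, named after its value was seen, was at 15.6, 15.2 and 11.8 FPKM in Prdx1 C52S, beside 10.1, 4.35 and 8.23 in WT (log2 difference 1.15, SE 0.36, edgeR adjusted p = 0.119), and at 0.82 with an edgeR adjusted p of 0.0307 without WT 8. Transcripts of the complex and of its inhibitor Pdk1 thus lay on the same side. The kinases Pdk4 (0.89, edgeR adjusted p = 0.16) and Pdk2 (0.38, edgeR adjusted p = 0.301) also had positive fold changes, with overlapping groups. Both were named after their values were seen, and Pdk3 went the other way.

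Citrate synthase, encoded by Cs (ENSMUSG00000005683, chromosome 10, 128337734 to 128362479, plus strand), joins acetyl-CoA to oxaloacetate in the opening step of the cycle. Its level was 29.9, 29.1 and 30.5 FPKM in Prdx1 C52S 1, 2 and 4, beside 23.1, 21.6 and 26.0 in WT 6, 8 and 9. The groups did not overlap, and the Prdx1 C52S libraries were close together. The means were 29.8 ± 0.693 and 23.6 ± 2.23 FPKM (SD, n = 3 each), and the log2 fold change was 0.62 (SE 0.16), or 0.47 without WT 8. Cs had the highest log2 fold change of the 8 enzymes with TMM and under each alternative run, by the least without WT 6, where it was 0.64 beside 0.63 for Pdha1 and Suclg2. The related gene Csl was at 0 to 0.0418 FPKM, and the small gene Gm23182 overlaps Cs on the same strand.

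Isocitrate dehydrogenase 3 oxidises isocitrate with NAD and is built from alpha, beta and gamma subunits. Idh3a (ENSMUSG00000032279, chromosome 9, 54586334 to 54604661, plus strand), the catalytic alpha subunit, had the lowest mean FPKM of the 9 members. It was at 6.97, 7.36 and 6.92 FPKM in Prdx1 C52S, beside 7.02, 8.87 and 8.25 in WT 6, 8 and 9. The groups overlapped through WT 6, and the log2 fold change was 0.11 (SE 0.10). Idh3b was at 40.5 ± 1.7 against 38.8 ± 1.93 FPKM (0.35, edgeR adjusted p = 0.143) and Idh3g at 20.6 ± 0.525 against 21.8 ± 0.618 (0.20, edgeR adjusted p = 0.276). With library totals in place of TMM factors, their log2 fold changes were 0.05 and -0.09. Within a library the ratio of Idh3a to Idh3b was 0.167 to 0.18 in Prdx1 C52S and 0.191 to 0.225 in WT, while that of Idh3a to Idh3g overlapped (0.344 ± 0.0185 and 0.368 ± 0.0345). The ratio of Idh3b to Idh3g also differed without overlap, at 1.97 ± 0.0778 and 1.78 ± 0.0394. The alpha transcript was the least abundant of the 3 in each library.

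Ogdh (ENSMUSG00000020456, chromosome 11, 6291633 to 6356642, plus strand) encodes the E1 component of the oxoglutarate dehydrogenase complex, which makes succinyl-CoA. It was at 29.5, 27.7 and 29.8 FPKM in Prdx1 C52S, beside 32.6, 31.7 and 31.7 in WT 6, 8 and 9. Every Prdx1 C52S library lay below every WT library in FPKM, but the groups overlapped after TMM scaling, where the log2 fold change was 0.14 (SE 0.13). Its partner Dlst, the E2 component, was at 18.5 ± 1.41 against 19.2 ± 0.943 FPKM (log2 difference 0.23 with TMM and -0.06 with library totals, edgeR adjusted p = 0.263 with TMM). Dld, the E3 component that this complex shares with pyruvate dehydrogenase, was at 39.5 ± 2.67 against 37.3 ± 3.89 FPKM (0.37 with TMM and 0.07 with library totals, edgeR adjusted p = 0.15 with TMM). The ratio of Ogdh to Dlst was 1.57 ± 0.0898 and 1.67 ± 0.107, with overlapping groups.

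Succinyl-CoA ligase turns succinyl-CoA into succinate and a nucleoside triphosphate. Suclg1 encodes its alpha subunit, which pairs with the GTP-forming beta subunit of Suclg2 or the ATP-forming beta subunit of Sucla2. Suclg1 (ENSMUSG00000052738, chromosome 6, 73248382 to 73276911, plus strand) was at 40.7, 39.2 and 41.8 FPKM in Prdx1 C52S, beside 35.3, 32.4 and 37.0 in WT 6, 8 and 9. Suclg2 (ENSMUSG00000061838, chromosome 6, 95473009 to 95718800, minus strand) was at 69.9, 61.9 and 63.7 FPKM in Prdx1 C52S, beside 55.4, 43.4 and 60.6 in WT. Neither gene had overlapping groups, although WT 9 came within 1.3 FPKM of the lowest Prdx1 C52S value of Suclg2. The log2 fold changes were 0.49 (SE 0.15) for Suclg1 and 0.56 (SE 0.21) for Suclg2, and both were 0.36 without WT 8.

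The other beta subunit, Sucla2, was tested over all genes. It was at 34.9, 33.4 and 33.6 FPKM in Prdx1 C52S, beside 26.3, 26.4 and 30.4 in WT, with a log2 fold change of 0.57 (SE 0.15, edgeR adjusted p = 0.0934), and 0.45 with an edgeR adjusted p of 0.0424 without WT 8. The ratio of Suclg2 to Sucla2 was 1.92 ± 0.0769 in Prdx1 C52S and 1.92 ± 0.244 in WT (SD, n = 3 each). The GTP-forming subunit was thus the more abundant transcript in all 6 libraries, and its proportion to the ATP-forming one did not differ beyond the spread.

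Succinate dehydrogenase, which is also complex II of the respiratory chain, oxidises succinate to fumarate, and its 4 subunits were tested over all genes. Sdha was at 124 ± 1.58 against 102 ± 10.8 FPKM (log2 difference 0.55, SE 0.19, edgeR adjusted p = 0.129) and Sdhb at 62.0 ± 1.55 against 51.6 ± 3.28 (0.54, edgeR adjusted p = 0.101). Sdhc (0.44, edgeR adjusted p = 0.121) and Sdhd (0.50, edgeR adjusted p = 0.107) had similar fold changes. Without WT 8, Sdha (0.39) and Sdhb (0.41) each had an edgeR adjusted p of 0.043.

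Fumarase and malate dehydrogenase carry fumarate back to oxaloacetate. Fh1 (ENSMUSG00000026526, chromosome 1, 175600374 to 175625635, minus strand) was at 51.7, 39.0 and 44.4 FPKM in Prdx1 C52S, beside 44.3, 60.0 and 59.7 in WT 6, 8 and 9. The groups overlapped, since WT 6 was no higher than Prdx1 C52S 4, and the log2 fold change was 0.01 (SE 0.16). Kmo overlaps Fh1 on the other strand at 31.6 to 55.2 FPKM, and whether the authors' counting used the strand is not given in the sources used here, so part of the Fh1 value may be shared with Kmo. Mdh2 (ENSMUSG00000019179, chromosome 5, 135778480 to 135790391, plus strand), the mitochondrial malate dehydrogenase, was at 47.4, 41.5 and 45.6 FPKM in Prdx1 C52S, beside 43.3, 54.1 and 51.1 in WT. Its groups overlapped too, with a log2 fold change of 0.15 (SE 0.12). The cytosolic enzyme Mdh1, named after its value was seen, was at 197 ± 13.2 against 153 ± 14.2 FPKM (0.65, edgeR adjusted p = 0.101, and 0.53 with an edgeR adjusted p of 0.0446 without WT 8). The ratio of Mdh2 to Mdh1 was 0.195 to 0.25 in Prdx1 C52S and 0.301 to 0.372 in WT, without overlap.

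**Figure D2:**
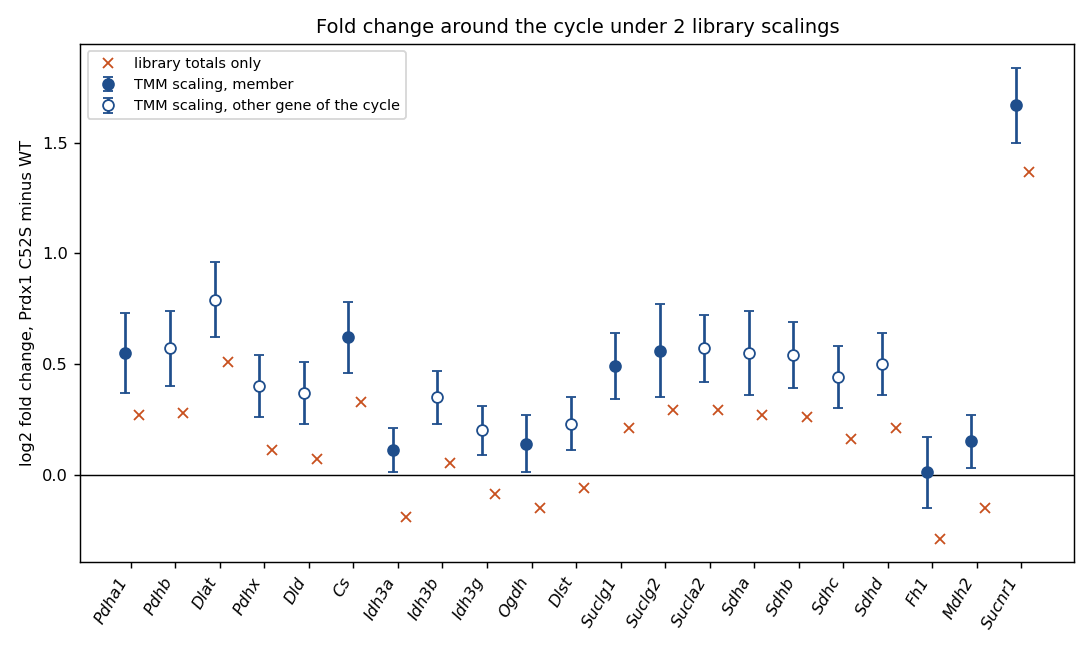
Log2 fold change (Prdx1 C52S minus WT) of the genes around the cycle, in the order of the steps, with SE bars for TMM scaling (circles; filled for the members, open for other genes) and crosses for library totals only. Idh3a, Ogdh, Fh1 and Mdh2 lie between 0.01 and 0.15 with TMM and between -0.29 and -0.15 with library totals, whereas Pdha1, Cs, Suclg1, Suclg2 and Sucnr1 are above 0 with both.

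How libraries were scaled decided the sign for 4 of the enzymes. The median log2 fold change of all genes tested was -0.03 with TMM and -0.34 with library totals. Idh3a, Ogdh, Fh1 and Mdh2 had log2 fold changes of 0.11, 0.14, 0.01 and 0.15 with TMM and of -0.19, -0.15, -0.29 and -0.15 with library totals. Relative to the median of all genes they lay at 0.15, 0.19, 0.05 and 0.19 with library totals, and Pdha1, Cs, Suclg1 and Suclg2 at 0.61, 0.67, 0.55 and 0.63. Sucnr1 lay 1.71 above that median with both scalings. The summed FPKM of the 8 enzymes was 310 ± 16.1 in Prdx1 C52S and 295 ± 19.0 in WT (SD, n = 3 each), a difference smaller than the spread within either group.

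Ratios between members of the same library do not depend on that choice. Cs over Fh1 was 0.579, 0.745 and 0.686 in Prdx1 C52S 1, 2 and 4, beside 0.521, 0.36 and 0.435 in WT 6, 8 and 9. Suclg1 over Mdh2 was 0.859, 0.945 and 0.916 against 0.815, 0.599 and 0.723. Sucnr1 over Suclg1 was 0.51, 0.747 and 0.591 against 0.296, 0.308 and 0.222. None of these 3 ratios overlapped between the groups. These pairs set a member with a higher fold change over one with a lower one, so their direction follows from the values the members were picked for. The ratio of Suclg2 to Suclg1, which had similar fold changes, overlapped (1.61 ± 0.0995 and 1.52 ± 0.157).

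**Figure D3:**
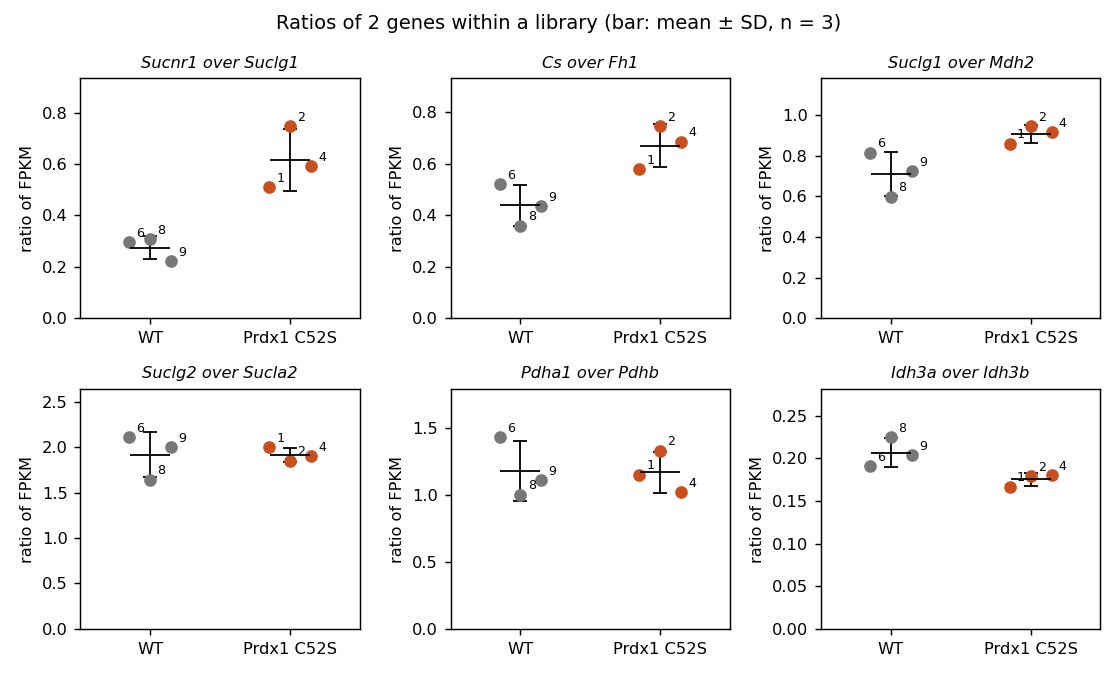
Ratios of the FPKM of a pair of genes within each library; points are libraries with their replicate labels, and bars give the mean ± SD of n = 3. Sucnr1 over Suclg1, Cs over Fh1 and Suclg1 over Mdh2 separate the groups and Idh3a over Idh3b is lower in each Prdx1 C52S library, while Suclg2 over Sucla2 (1.92 in both groups) and Pdha1 over Pdhb overlap.

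Levels per transcript length could be ordered within a library. Suclg2 was the highest of the 9 in 5 of 6 libraries and Fh1 in WT 8, and Idh3a was the lowest in 5 of 6 and Sucnr1 in WT 9. Over all libraries the mean FPKM was 59.1 for Suclg2, 49.9 for Fh1, 47.2 for Mdh2, 43.9 for Pdha1, 37.7 for Suclg1, 30.5 for Ogdh, 26.7 for Cs, 17.2 for Sucnr1 and 7.56 for Idh3a. Fh1, Mdh2 and Pdha1 changed places between libraries and did not differ beyond their spread. Ogdh stood above Cs in each WT library and below it in Prdx1 C52S 1, 2 and 4.

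WT 8 placed the enzymes at both ends of the WT range. Among the WT libraries, 4 members were lowest in WT 8 (Pdha1, Cs, Suclg1 and Suclg2) and 3 were highest there (Idh3a, Fh1 and Mdh2). Of all genes tested, 17.6% were lowest and 65.6% highest in FPKM in that library. The same 4 genes that were low in WT 8 were those with higher levels in Prdx1 C52S, and without WT 8 their log2 fold changes were between 0.36 and 0.47 in place of 0.49 to 0.62.

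Of the 12 other genes listed for the cycle (among them Idh2, the remaining subunits of the dehydrogenases and the ligase, and Mrps36), all had positive fold changes with TMM, with a median of 0.36. Of all 18931 genes tested, 8903 did. With library totals 7 were positive, with a median of 0.06, and those that were negative included Idh2 (-0.28), Mrps36 (-0.15), Idh3g (-0.09) and Dlst (-0.06). None passed in edgeR and 7 were higher at an unadjusted p under 0.05 (0 lower), beside 11.5% and 14.8% of all genes. DESeq2 called 6 higher (7.39% of all genes), voom with quality weights 4 (5.15%), and edgeR without WT 8 called 3 (2.7%), which were Sucla2, Sdha and Sdhb. A further 10 genes were listed for the assembly of these enzymes and their cofactors, among them lipoate and iron-sulphur genes. Of these 10, 9 had positive fold changes with a median of 0.23 (2 positive, median -0.06 with library totals). In edgeR 0 passed (2 higher and 1 lower at an unadjusted p under 0.05, and 1 higher in DESeq2 and in voom). The scaffold gene Iscu was at 33.6 ± 1.13 against 28.4 ± 3.01 FPKM (0.52, edgeR adjusted p = 0.109), and Lipt2, a lipoyl transferase, at 1.36 ± 0.3 against 2.79 ± 1.03 (-0.71, edgeR adjusted p = 0.155).

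Genes that fill or drain the cycle include those that make fat from citrate and glucose from oxaloacetate. Of 23, 18 had positive fold changes with a median of 0.32 (12 and 0.02 with library totals), 0 passed in edgeR, 10 were higher and 3 lower at an unadjusted p under 0.05, and 5 were higher and 0 lower at an adjusted p of 0.05 without WT 8. DESeq2 called 8 higher and 2 lower (7.39% and 9.1% of all genes) and voom 7 and 2 (5.15% and 5.08%). Over all genes, 11.5% and 14.8% passed the unadjusted threshold, and 2.7% and 1.94% the adjusted one without WT 8. Acly, which splits cytosolic citrate for fat synthesis, was at 119, 66.9 and 96.6 FPKM in Prdx1 C52S, beside 39.5, 47.8 and 38.8 in WT (log2 difference 1.46, SE 0.21, edgeR adjusted p = 0.0553). The malic enzyme Me1 was at 116 ± 8.83 against 52.6 ± 9.57 FPKM (1.40, edgeR adjusted p = 0.0601), and the cytosolic isocitrate dehydrogenase Idh1 at 140 ± 10.2 against 96.4 ± 10.2 (0.81, edgeR adjusted p = 0.0842). In each of these 3 genes every Prdx1 C52S library lay above every WT library. Slc25a10, which carries succinate and malate across the inner mitochondrial membrane and was named after its value was seen, was at 90.4 ± 9.09 against 69.4 ± 10.6 FPKM (0.65, edgeR adjusted p = 0.117).

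Genes of pathways that end in succinate or succinyl-CoA had the highest list median, 0.59, with 9 of 11 fold changes positive (also 9 with library totals, median 0.31). None passed in edgeR with all libraries. At an unadjusted p under 0.05, 7 were higher and 1 lower, beside 11.5% and 14.8% of all genes. DESeq2 called 7 higher and 1 lower (7.39% and 9.1% of all genes), voom 6 and 0 (5.15% and 5.08%). Without WT 8 edgeR called 6 and 0 (2.7% and 1.94%). Abat, the transaminase that starts the breakdown of gamma-aminobutyrate, was at 36.4, 43.1 and 38.2 FPKM in Prdx1 C52S, beside 22.7, 26.1 and 23.2 in WT (log2 difference 1.0, SE 0.13, edgeR adjusted p = 0.0553). Aldh5a1, which completes that path to succinate, was at 14.3 ± 0.848 against 10.3 ± 1.49 FPKM (0.75, edgeR adjusted p = 0.0934). Pcca, a subunit of propionyl-CoA carboxylase, was at 16.6 ± 0.254 against 12.3 ± 1.07 (0.71, edgeR adjusted p = 0.0821). Without WT 8 these 3 genes had edgeR adjusted p-values of 0.0106, 0.021 and 0.0185. Mmut, which makes succinyl-CoA from methylmalonyl-CoA and was named after its value was seen, was at 44.4 ± 2.95 against 36.5 ± 2.06 (0.56, edgeR adjusted p = 0.0984).

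Other receptors and carriers of metabolites had mostly negative fold changes. Of 16 listed genes in the table, 14 passed the filter, 4 had positive and 10 negative fold changes, and the median was -0.24 (2 positive, median -0.54 with library totals). In edgeR 0 passed, and 0 were higher and 2 lower at an unadjusted p under 0.05. DESeq2 and voom each called 0 higher and 2 lower. Over all genes, 11.5% were higher and 14.8% lower at that unadjusted p. The shares were 7.39% and 9.1% in DESeq2 and 5.15% and 5.08% in voom. P2ry12, a receptor for ADP, was at 0.911, 0.857 and 0.814 FPKM in Prdx1 C52S, beside 1.79, 2.07 and 1.71 in WT (log2 difference -0.81, SE 0.18, edgeR adjusted p = 0.0845). The citrate carrier Slc13a5 was at 0.262 ± 0.0702 against 0.623 ± 0.06 (-0.96, edgeR adjusted p = 0.112). P2ry13 (-0.31, edgeR adjusted p = 0.333) and the monocarboxylate carrier Slc16a1 (0.29, edgeR adjusted p = 0.239) had smaller differences. Slc16a1, Slc13a3, P2ry2 and P2ry1, named after their values were seen, had the highest levels of the list. Their log2 fold changes were 0.29, -0.01, 0.02 and 0.09 with TMM, and 0.0, -0.28, -0.28 and -0.21 with library totals. Several other genes were near 0 FPKM, such as Hcar1 (0.0275 against 0.0595, SE 1.24) and Ffar1 (0.0316 against 0.0466, SE 0.8), so their fold changes are uncertain.

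**Figure D4:**
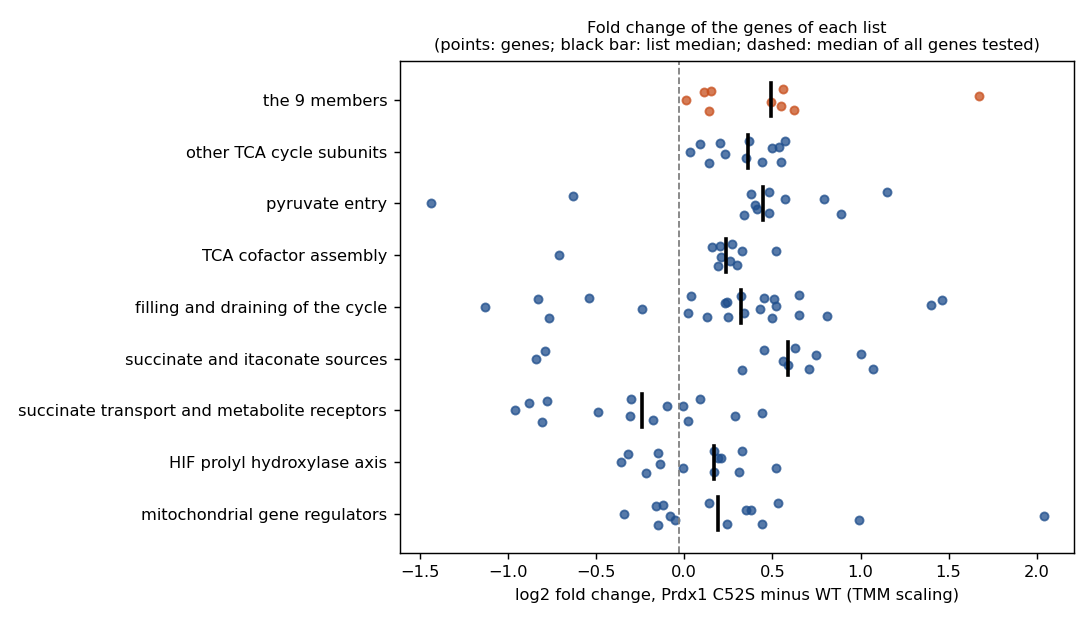
Log2 fold change (Prdx1 C52S minus WT, TMM scaling) of each gene in the 9 members and in the 8 lists of related genes; black bars are list medians and the dashed line is the median of all genes tested, -0.03. The list medians run from -0.24 for succinate transport and metabolite receptors to 0.59 for succinate and itaconate sources.

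Succinate is known to slow the prolyl hydroxylases that mark HIF for destruction. Of 13 genes of that axis, 7 had positive fold changes, with a median of 0.17 (3 and -0.15 with library totals), and 0 passed in edgeR (2 higher and 1 lower at an unadjusted p under 0.05; 1 higher in DESeq2 and 0 in voom). Hif1an, an asparagine hydroxylase of HIF, was at 4.61 ± 0.311 against 4.57 ± 0.576 FPKM (log2 difference 0.31 with TMM and 0.01 with library totals, edgeR adjusted p = 0.106 with TMM). The hydroxylases Egln2 and Egln3 were at 0.21 (edgeR adjusted p = 0.186, with -0.09 from library totals) and 0.52 (edgeR adjusted p = 0.194, with 0.21 from library totals). The HIF target Slc2a1 was at 2.85 ± 0.356 against 4.54 ± 0.972 (-0.36, edgeR adjusted p = 0.141, with -0.68 from library totals). Regulators of mitochondrial genes were mixed as well, with 8 of 14 positive, a median of 0.19 (6 and -0.11 with library totals), and 0 passing in edgeR (5 higher and 1 lower at an unadjusted p under 0.05; 2 higher in DESeq2, 1 in voom). The mitochondrial DNA factor Tfam was at 9.05 ± 0.493 against 8.49 ± 0.579 FPKM (0.38, edgeR adjusted p = 0.0965, with 0.08 from library totals). The mitochondrial deacetylase Sirt3 was at 13 ± 0.412 against 10.8 ± 1.54 (0.53, edgeR adjusted p = 0.132, with 0.25 from library totals). Esrrg, an estrogen-related receptor, was at 0.533 ± 0.179 against 0.15 ± 0.118 (2.04, SE 0.76, edgeR adjusted p = 0.152), while Sirt5 was at 0.35 (edgeR adjusted p = 0.171). Beside the counts of both lists, 8903 of the 18931 genes tested had positive fold changes with TMM. Of all genes, 11.5% were higher and 14.8% lower at an unadjusted p under 0.05. The shares were 7.39% and 9.1% in DESeq2 and 5.15% and 5.08% in voom.

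Markers of cell types differed along with the groups, and in bulk tissue fewer cells of a type and less RNA per cell cannot be told apart. All 8 macrophage markers had lower FPKM in every Prdx1 C52S library, with a summed level of 148 to 180 against 364 to 413. The stellate cell and fibroblast markers summed to 62.8 to 79.3 FPKM against 85.7 to 132, with 5 of 8 wholly lower and 1 wholly higher, where 36.7% of all genes were wholly lower. The members of that list differed in direction, with log2 fold changes of 1.05 for Ngfr, 0.67 for Lrat and 0.53 for Reln, and of -1.02 for Col1a1, -0.80 for Col3a1 and -0.15 for Dcn, which had the highest FPKM of the list. Hepatocyte markers summed to 28900 to 30900 FPKM against 26500 to 28200, which identifies the tissue as liver in all 6 libraries. Most of that sum was Alb, and of the 8 markers 2 lay wholly above WT and 2 wholly below. Periportal markers summed to 674 to 888 against 608 to 805, with 1 of 5 wholly above and 1 wholly below.

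All 5 pericentral hepatocyte markers lay wholly above WT, where 6.09% of all genes tested did. Their sums were 2720, 3420 and 2830 FPKM in Prdx1 C52S 1, 2 and 4, beside 2240, 605 and 2140 in WT 6, 8 and 9. The low sum of WT 8 goes with the low Pdha1, Cs, Suclg1 and Suclg2 of that library, while Sucnr1 was at 9.98 there, between WT 6 and WT 9. Kupffer cell markers (162 to 206 against 35.2 to 267) and sinusoidal endothelial markers (45.3 to 52.4 against 21.5 to 56.0) overlapped, with WT 8 lowest in both. Cholangiocyte markers summed to 65.8 to 136 against 234 to 858, highest in WT 8, and T cell markers to 1.14 to 1.31 against 2.92 to 6.96. Most of the cholangiocyte sum was Spp1 alone (60.1 to 125 FPKM against 220 to 736). Of the 6 cholangiocyte markers 5 lay wholly below WT, and of the 6 T cell markers 4, where 36.7% of all genes did. No marker in these lists was at 0 in every library. The part of these cell types in the levels of the members was not tested.

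**Figure D5:**
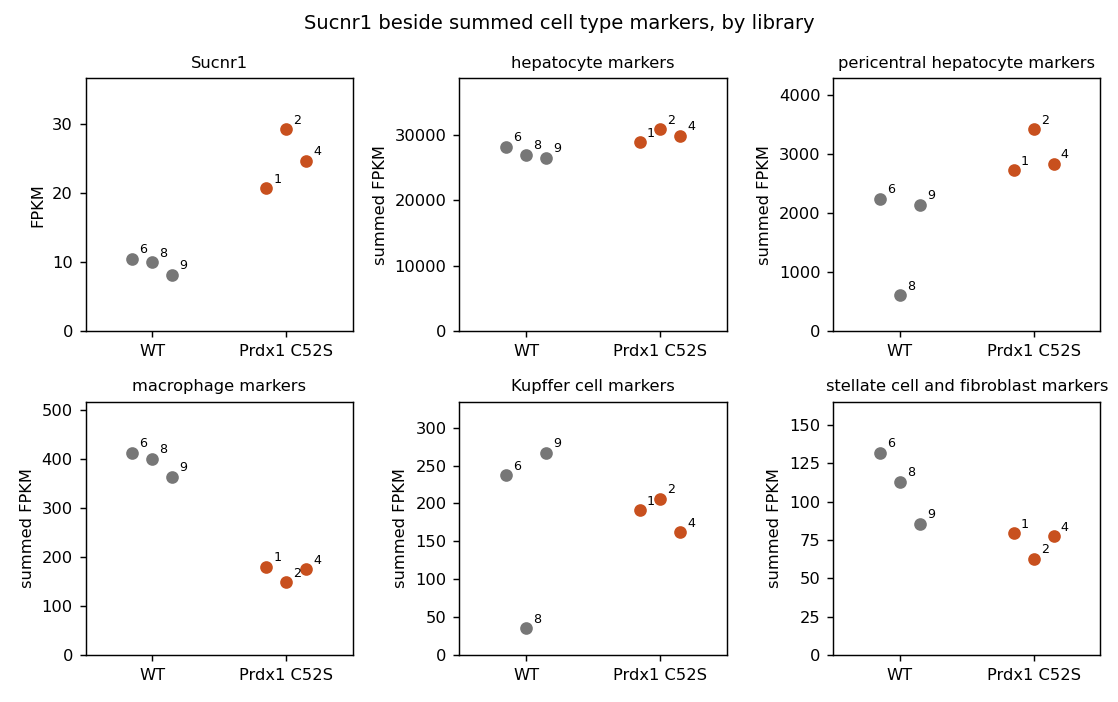
Sucnr1 in FPKM and the summed FPKM of 5 cell type marker lists in each library, with WT in grey and Prdx1 C52S in orange; numbers are replicate labels. Macrophage markers (148 to 180 against 364 to 413) lie opposite to Sucnr1, and pericentral hepatocyte markers lie on the same side, with WT 8 at 605.

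The genes most like Sucnr1 were sought by Pearson correlation of log2(FPKM + 1) over the 6 libraries among 10612 genes with a mean of at least 1 FPKM. Among the 5 closest were Selenoi (r = 0.995), Dgcr6 (0.993), Nit2 (0.988) and Mug-ps1 (0.985). Nit2, an amidase that yields oxoglutarate, was at 41.8 ± 3.01 against 30.2 ± 0.406 FPKM (SD, n = 3 each). For the mean profile of the 8 enzymes the 5 closest were Slc39a9 (0.981), Atp5pb (0.977), Fth1 (0.966), Ghitm (0.965) and Dnajc19-ps (0.964). Atp5pb, a subunit of ATP synthase, was at 59.8 ± 1.37 against 57.6 ± 2.78 FPKM. The points share libraries, depth and the split into 2 groups, and the highest of 10612 values over 6 points is high by selection, so these are descriptions only.

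Beside Sucnr1 on chromosome 3 lie Aadac and Mbnl1, both named after their values were seen. Aadac, an esterase of hepatocytes that ends upstream of Sucnr1, was at 264, 297 and 309 FPKM in Prdx1 C52S, beside 205, 183 and 205 in WT (log2 difference 0.83, SE 0.18, edgeR adjusted p = 0.0819, and 0.69 with an edgeR adjusted p of 0.0203 without WT 8). Mbnl1, a splicing factor downstream, was at 4.11 ± 0.264 against 4.65 ± 0.791 FPKM (0.12, edgeR adjusted p = 0.434). Aadac thus differed in the same direction as Sucnr1 by less, and the Mbnl1 groups overlapped.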

How the data were processed

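Poly(A)-selected liver RNA was sequenced as paired reads, per the labels' protocols. StringTie 1.3.4d, cutadapt 1.9, UMI-tools, HISAT2 2.0.4, edgeR and DESeq2 are named, without the step each served, per the submitters' processing notes. FPKM values, scaled by the authors to length and depth, were deposited with estimated counts in the same table, per the file headers. These estimated counts, as deposited, are whole numbers. That about 4 of them stand for 1 fragment is inferred from an excess of values at 4 (6204, beside 3538 at 3 and 1965 at 5). On that reading the libraries hold 15.1 to 19.0 M fragments. Tests on the estimated counts then take low values as more precise than the fragments behind them. The notes name the build mm9, but 26753 of 29642 genes have the coordinates of GENCODE M21 (GRCm38), which are used here.

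Estimated counts were rounded and fitted in edgeR 4.0.16 (R 4.3.3) with filterByExpr, TMM factors and robust quasi-likelihood F-tests, two-sided, Prdx1 C52S against WT, with Benjamini-Hochberg adjustment over 18931 genes. SE was taken as the size of the log2 fold change over the root of its F statistic. Factors were 0.883 to 0.92 in Prdx1 C52S and 1.03 to 1.28 in WT. Alternatives were library totals, DESeq2 1.42.0, voom with quality weights, limma 3.58.1 on log2(FPKM + 1) and log2(FPKM + 0.1), no filter, and each library left out. The fit was tested on simulated data. Members, lists of related genes and markers were chosen with earlier results of these data known. The text names the 4 genes of each list with the smallest p, the remaining subunits of the cycle and the 5 genes most like Sucnr1 or the enzyme mean, and says where others were named after their values were seen. A few genes that this rule names are not reported here; they remain in the counts over lists.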

Additional observations from a re-analysis of the deposited data

How the results depend on the processing

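No paired analysis was possible because the groups share no replicate number. With all 6 libraries edgeR called 0 genes higher and 0 lower. The counts higher and lower were 35 and 125 with library totals, 1399 and 1723 with DESeq2, 975 and 962 with voom, 39 and 94 with limma on log2(FPKM + 1), 59 and 221 on log2(FPKM + 0.1) and 105 and 91 without a filter. They ran from 0 to 522 higher (522 and 375 without WT 8, 63 and 69 without WT 9) and 0 to 375 lower when 1 library was left out. Of the 109 related genes tested in the 8 lists, 0 were called in the edgeR fit. The shares of all genes tested, higher and lower, were 7.39% and 9.1% with DESeq2, 5.15% and 5.08% with voom, and 2.7% and 1.94% without WT 8. Higher and lower calls among the related genes were 2 and 0 with library totals, 29 and 6 with DESeq2, 22 and 5 with voom, 2 and 0 with limma on log2(FPKM + 1), 2 and 1 on log2(FPKM + 0.1), 3 and 0 without a filter, and 0 to 16 higher with a library left out (16 without WT 8).

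With library totals the log2 fold changes of Pdha1, Cs, Idh3a, Ogdh, Suclg1, Fh1, Mdh2 and Sucnr1 were 0.27, 0.33, -0.19, -0.15, 0.21, -0.29, -0.15 and 1.37. On log2(FPKM + 1) they were 0.28, 0.33, -0.16, -0.14, 0.21, -0.27, -0.14 and 1.29, and on log2(FPKM + 0.1) they were 0.29, 0.34, -0.18, -0.14, 0.22, -0.27, -0.14 and 1.37. These settings lack the TMM factors, which is how they lie lower. Pdha1, Cs, Suclg1, Suclg2 and Sucnr1 stayed positive under every alternative run, and Fh1 ran from -0.08 to 0.15 with a library left out. Among the other genes named, those whose signs turned included Dlst (-0.06 with library totals, and -0.05 and -0.05 on the FPKM scales with pseudocounts of 1 and 0.1). Under the same settings Egln2 was at -0.09, -0.07 and -0.08, Idh3g at -0.09, -0.08 and -0.08, and Mrps36 at -0.15, -0.13 and -0.14. Idh2 was at -0.28, -0.27 and -0.27 there, and at -0.07 to 0.11 with a library left out, negative without Prdx1 C52S 1. Nfu1 was at 0.30 with TMM and just under 0 with library totals, where it rounds to 0.00. P2ry2 and P2ry1 were at 0.02 and 0.09 with TMM and at -0.28 and -0.21 with library totals.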
